A study of Mus musculus with 24 samples.

Results

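Cathepsins are proteases of endosomes and lysosomes, and 10 of their genes are described here in tumour myeloid cells: Ctsb, Ctsl, Ctss, Ctsk, Ctsh, Ctsc and Ctsz, which encode cysteine proteases, Ctsd and Ctse, which encode aspartic proteases, and Ctsa, which encodes a serine carboxypeptidase. They were taken by symbol from a list of lysosomal cathepsins, and all 10 were matched to an Ensembl identifier among the 54446 gene identifiers of each count table. All 10 passed the filter on low counts.

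Cathepsins are made as inactive precursors, sorted to the endolysosomal system and activated there by acid pH and proteolysis. In macrophages, monocytes and dendritic cells they degrade engulfed proteins and prepare peptides and the invariant chain for presentation on MHC class II, and secreted cathepsins degrade extracellular matrix. Cystatins and stefins, which are small inhibitors that occupy the active site, hold the cysteine cathepsins in check.

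CD11b+ myeloid cells were sorted from MC38 tumours, a transplanted mouse colon carcinoma line, in male and female mice aged 8 to 10 weeks. WT mice carried Ythdf2 fl/fl without Cre, and cKO mice carried Ythdf2 fl/fl with Cre from the Lyz locus, which is active in myeloid cells and not in every CD11b+ cell to the same extent. Tumours were left untreated (Ctrl) or received 20 Gy in 1 dose (IR), and cells were taken 3 days after irradiation. The RNA of each replicate was sequenced before (Input) and after pull-down of N6-methyladenosine (m6A) by antibody (IP), which gave 12 Input and 12 IP libraries in 8 groups of 3. The floxed Ythdf2 alleles were shared by all groups. Cells of 5 mice were pooled per replicate, and as replicates are named both technical and biological in the methods, p-values below measure the spread between libraries. YTHDF2 is a protein that binds m6A-marked mRNA and promotes its decay.

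Input libraries held 65.2 to 83.7 M gene counts and IP libraries 68.8 to 86.4 M (M, counts in units of 1e6). Levels below are CPM, counts per 1e6 gene counts of the library, scaled by TMM factors within the Inputs or within the IPs. Lyz2, the lysozyme gene that carries the Cre, was at 19906 to 21336 CPM in the 6 WT Inputs and at 297 to 414 CPM in the 6 cKO Inputs. In the IP libraries its mean was 17303 ± 442 CPM in WT Ctrl and 95.2 ± 2.78 in cKO Ctrl, but under the label WT IR it was 98.3 ± 1.55 CPM, and under the label cKO IR 21140 ± 130 (SD, n = 3). Lyz2 in the irradiated IP libraries thus went against their genotype labels. Their counts of called members are given below by label and against the irradiated Inputs of the other genotype label. Ythdf2 itself was at 95.5 to 98.1 CPM in the WT Ctrl Inputs and 103 to 106 in the WT IR ones, and at 175 to 185 and 218 to 231 in the corresponding cKO Inputs, so its gene-level counts were higher in the libraries labelled cKO. Gene totals do not separate exons, and this check says nothing about the deleted part of the gene.

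The cathepsins spanned a wide range of abundance. Per kilobase of merged exons, and as the mean over the 12 Inputs, Ctss came first with 3147 CPM per kb (rank 9 of 16084 genes), followed by Ctsd with 1264, Ctsb with 926 and Ctsz with 919. Ctsa (132 CPM per kb), Ctsh (100.2), Ctsl (76.8) and Ctsc (74.7) formed a middle tier, Ctsk stood at 12.7 (rank 3429) and Ctse at 1.46 (rank 9460). Some neighbours changed order between the groups. Ctsb and Ctsz were level in WT Ctrl, at 898 ± 5.4 and 895 ± 11 CPM per kb, whereas Ctsz was higher in cKO Ctrl, at 982 ± 8.7 against 921 ± 2.5 (SD, n = 3). Ctsl was above Ctsc in WT IR (85.6 ± 0.78 and 60.3 ± 4.3) and below it in cKO Ctrl (64.9 ± 0.16 and 92.4 ± 1.5). Ctsa was above Ctsh, and Ctsh above Ctsl, in the mean of every group, with the Ctsa and Ctsh means nearest in cKO IR (134 ± 1.1 and 123 ± 2.7). The ranges of all other neighbours over the 12 Inputs did not overlap. With the length of the longest coding transcript in place of merged exons, Ctsh at 279 CPM per kb came before Ctsa at 171, and Ctsc at 135 before Ctsl at 80.8. Both lengths of Ctsl include an annotated 3′ UTR of 4764 bases beside 1002 coding bases. Its place in the order depends on that annotation, and a shorter length was not tried.

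Summed over the 10 genes, cathepsin counts made up 1.53% ± 0.018 of the gene counts of WT Inputs without and 1.56% ± 0.028 with irradiation, and for cKO Inputs the shares were 1.62% ± 0.0071 and 1.78% ± 0.023 (SD, n = 3). Most of this share belonged to Ctsb, Ctss and Ctsd. The lowest cKO IR library (1.76%) was above the highest library of every other Input group (1.62%).

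**Figure D1:**
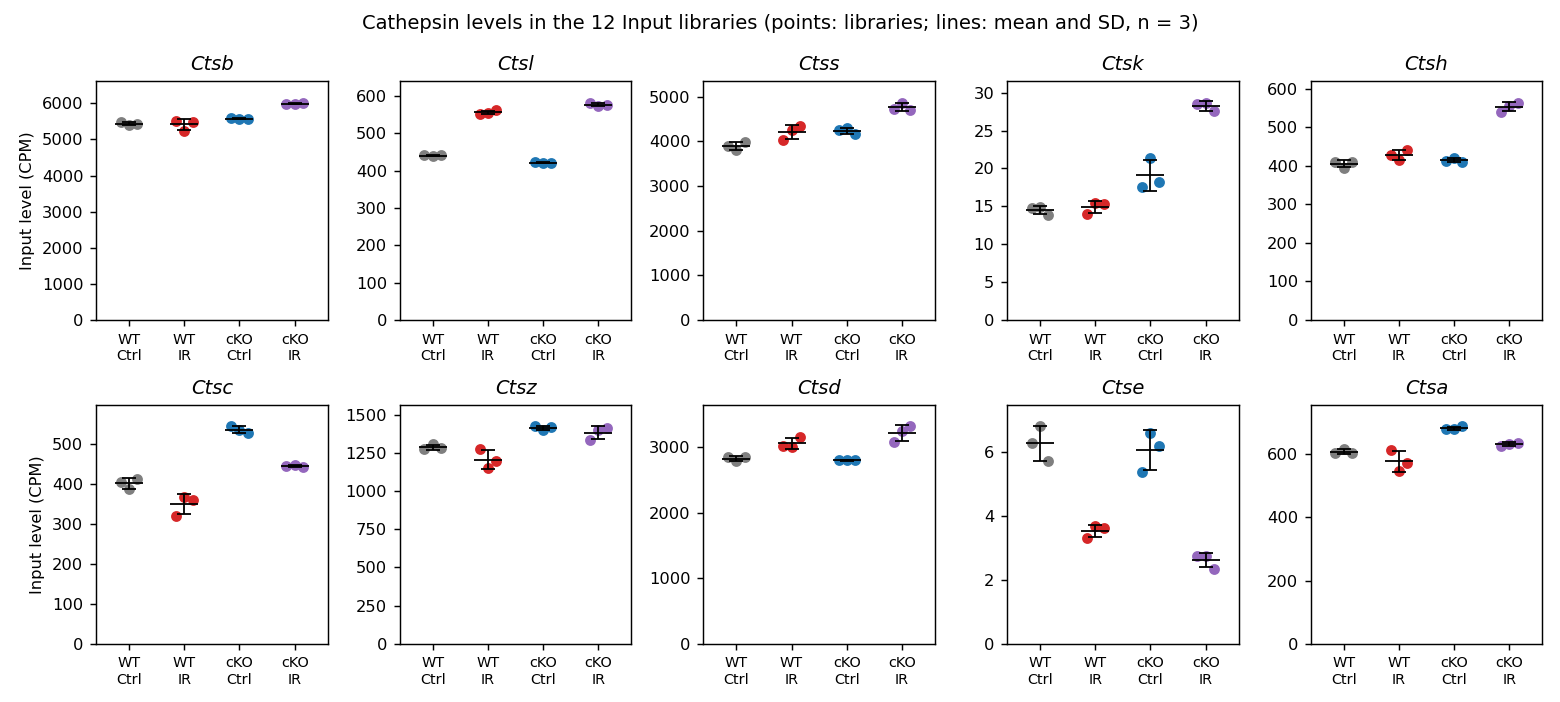
Level of each cathepsin in the 12 Input libraries (CPM, linear axes from 0, 1 panel a gene); points are libraries, and the lines give the mean and SD of each group of 3. Ctse was lower in both irradiated groups, Ctsl higher in both, and Ctsk and Ctsh were highest in cKO IR, at 28.2 and 553 CPM on average.

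Changes of the Inputs were tested over 16090 genes with edgeR's quasi-likelihood test, and calls were made at p under 0.05 after Benjamini-Hochberg adjustment. These are bulk libraries, in which fewer cells of a type and less RNA per cell cannot be told apart. After irradiation of WT tumours 4 cathepsins were called higher and 2 lower, where 14.7% and 17.0% of all tested genes were called in these directions. In cKO tumours 6 were called higher and 3 lower, against 21.8% and 23.8% of all genes. Without irradiation 5 were higher in cKO than in WT and 0 lower (8.05% and 7.61% of all genes, edgeR), while 1, Ctsl, was lower at an unadjusted p under 0.05 and was called by DESeq2. With irradiation 7 were higher in cKO than in WT and 1 lower (23.9% and 23.8% of all genes). The irradiation effect was larger, in the positive direction, in cKO than in WT for 4 cathepsins and smaller for 0 (15.0% and 15.2% of all genes, edgeR's interaction term), with 1, Ctse, smaller at an unadjusted p under 0.05 and 0 by DESeq2. The median log2 fold change of the 10 genes was 0.02 in WT after irradiation, 0.14 in cKO after irradiation, 0.07 between the unirradiated genotypes and 0.15 between the irradiated ones, and the median of all genes lay between -0.003 and 0.01 in these contrasts.

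**Figure D2:**
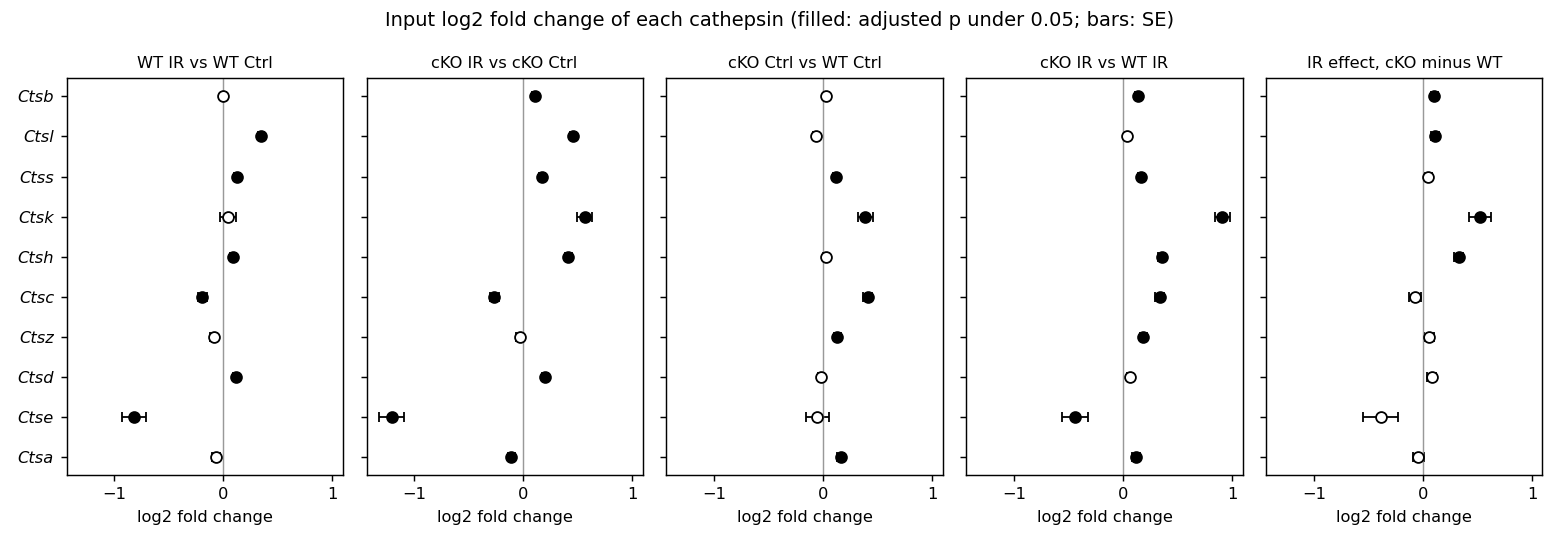
Log2 fold change in the Inputs (x axis) of each cathepsin (y axis) in 5 contrasts; bars are SE and filled points have an adjusted p under 0.05. Ctse fell by 0.82 and 1.21 after irradiation in WT and cKO, and Ctsk reached 0.91 between the irradiated genotypes.

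Ctsb encodes an abundant lysosomal endopeptidase that also removes dipeptides from protein ends. Its Input levels were 5470, 5405 and 5434 CPM in WT Ctrl and 5510, 5241 and 5490 after irradiation, and in cKO they were 5588, 5557 and 5572 without and 5973, 5992 and 6015 with it. The 3 cKO IR libraries were above the other 9, and the WT IR and WT Ctrl libraries overlapped. Irradiation raised Ctsb in cKO by 0.11 on the log2 scale (SE 0.022, adjusted p = 4.8e-04, edgeR), while the WT value was 0.00 (SE 0.022, adjusted p = 0.95), and the difference of these effects was 0.10 (SE 0.031, adjusted p = 0.015).

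Ctsl encodes a cysteine endopeptidase of broad specificity. Levels were 441, 438 and 441 CPM in WT Ctrl and 551, 554 and 561 after irradiation, and in cKO they were 422, 420 and 421 without and 581, 573 and 574 with it. Both irradiated groups were above both unirradiated groups, and the groups did not overlap. Ctsl rose by 0.35 in WT (SE 0.026, adjusted p = 2.5e-09) and by 0.45 in cKO (SE 0.026, adjusted p = 3.2e-11). These effects differed by 0.11 (SE 0.037, adjusted p = 0.032), a call that was lost without any 1 of 8 Inputs, with adjusted p between 0.051 and 0.072.

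Ctss encodes the cysteine protease that cleaves the invariant chain in antigen-presenting cells. Its levels were 3887, 3793 and 3976 CPM in WT Ctrl and 4033, 4255 and 4345 after irradiation, and in cKO they were 4246, 4292 and 4166 without and 4727, 4860 and 4707 with it. The cKO IR libraries were the highest and the WT Ctrl libraries the lowest, with WT IR and cKO Ctrl overlapping between them. Ctss rose by 0.12 after irradiation in WT (adjusted p = 0.0016) and by 0.17 in cKO (adjusted p = 3.4e-05), and it was higher in cKO by 0.12 without irradiation (adjusted p = 0.0052) and by 0.17 with it (adjusted p = 5.0e-05), all with an SE of 0.028.

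Ctsk encodes a collagen-degrading protease best known from osteoclasts, and the gene lies next to Ctss on chromosome 3. It was counted 905 to 2075 times in an Input library. Levels were 14.8, 14.9 and 13.9 CPM in WT Ctrl and 14.0, 15.4 and 15.3 after irradiation, and in cKO they were 17.6, 21.4 and 18.2 without and 28.6, 28.7 and 27.5 with it. Both WT groups overlapped, cKO Ctrl was above them, and cKO IR was above every other library. Between the irradiated genotypes this was a 1.9-fold ratio of mean CPM, or 0.91 on the log2 scale (SE 0.071, adjusted p = 1.8e-09). Without irradiation the genotypes differed by 0.39 (SE 0.071, adjusted p = 5.8e-04). Irradiation raised Ctsk in cKO by 0.57 (SE 0.069, adjusted p = 9.9e-07), the WT value was 0.04 (SE 0.072, adjusted p = 0.70), and the interaction was 0.52 (SE 0.10, adjusted p = 4.3e-04).

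Ctsh encodes an aminopeptidase. Its levels were 411, 396 and 411 CPM in WT Ctrl and 429, 416 and 442 after irradiation, and in cKO they were 413, 421 and 410 without and 540, 555 and 563 with it. The cKO IR libraries were above the other 9, which lay between 396 and 442. Irradiation raised Ctsh by 0.42 in cKO (SE 0.031, adjusted p = 1.1e-09) and by 0.09 in WT (SE 0.031, adjusted p = 0.033), and the effects differed by 0.33 (SE 0.044, adjusted p = 1.0e-05). The call in WT was lost without WT Ctrl replicate 1 (adjusted p = 0.052), 2 (0.15) or 3 (0.056), and without WT IR replicate 3 (0.15).

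Ctsc encodes dipeptidyl peptidase I, which activates the serine proteases of granules in neutrophils, mast cells and cytotoxic lymphocytes. Its levels were 406, 388 and 412 CPM in WT Ctrl and 322, 369 and 360 after irradiation, and in cKO they were 545, 537 and 528 without and 446, 448 and 443 with it. None of the 4 groups overlapped another, cKO Ctrl being highest and WT IR lowest. Ctsc fell by 0.19 after irradiation in WT (SE 0.041, adjusted p = 0.0010) and fell by 0.27 in cKO (SE 0.041, adjusted p = 1.6e-05). It was higher in cKO by 0.41 without irradiation (SE 0.041, adjusted p = 3.5e-07) and by 0.33 with it (SE 0.041, adjusted p = 9.1e-07).

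Ctsz, whose product is a carboxypeptidase, ranged from 1149 to 1424 CPM over the 12 Inputs, with a median of 1320. It was higher in cKO than in WT by 0.13 without irradiation (adjusted p = 0.0098) and by 0.18 with it (adjusted p = 9.6e-05), with an SE of 0.033 each. After irradiation the values were -0.09 in WT (adjusted p = 0.051) and -0.03 in cKO (adjusted p = 0.48), and without WT IR replicate 1 the WT value was called at -0.13 (adjusted p = 1.8e-04).

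Among the aspartic proteases, Ctsd encodes the main lysosomal endopeptidase of this class and ranged from 2781 to 3313 CPM in the Inputs, with a median of 2922. It rose by 0.12 after irradiation in WT (SE 0.027, adjusted p = 0.0017) and by 0.20 in cKO (SE 0.027, adjusted p = 4.3e-06), and all 3 irradiated libraries of each genotype were above the unirradiated ones. The genotypes were not called apart, with -0.02 without irradiation (adjusted p = 0.74) and 0.06 with it (adjusted p = 0.078).

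Ctse, whose product sits in endosomes and the endoplasmic reticulum rather than in lysosomes, was the least abundant member, with 156 to 556 counts per Input library. Levels were 6.29, 6.81 and 5.73 CPM in WT Ctrl and 3.31, 3.69 and 3.61 after irradiation, and in cKO they were 5.39, 6.61 and 6.19 without and 2.75, 2.76 and 2.36 with it. All 6 irradiated libraries were below all 6 unirradiated ones, and the unirradiated genotypes overlapped. It fell by 0.82 in WT (SE 0.11, adjusted p = 8.3e-06) and by 1.21 in cKO (SE 0.12, adjusted p = 3.4e-08), to 0.564 and 0.432 times the mean CPM of the unirradiated group. With irradiation Ctse was lower in cKO than in WT, at -0.44 (SE 0.12, adjusted p = 0.0044), while the difference of the irradiation effects was -0.39 (SE 0.16, adjusted p = 0.075).

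Ctsa encodes protective protein, which holds neuraminidase and beta-galactosidase in a stable complex besides acting as a serine carboxypeptidase. Levels were 603, 616 and 605 CPM in WT Ctrl and 613, 546 and 573 after irradiation, and in cKO they were 679, 679 and 688 without and 627, 632 and 637 with it. Each cKO group was above both WT groups. The genotype difference was 0.16 without irradiation (SE 0.034, adjusted p = 0.0023) and 0.12 with it (SE 0.034, adjusted p = 0.0072). Ctsa fell by 0.11 after irradiation in cKO (SE 0.034, adjusted p = 0.012), and the WT value of -0.07 was not called (adjusted p = 0.15). Without WT IR replicate 1 it was called at -0.11 (adjusted p = 9.2e-04).

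Levels of marker genes moved between the groups beside the cathepsins. The summed level of 8 neutrophil markers (such as S100a8, Cxcr2 and Ly6g) was 2144 to 2249 CPM in WT Inputs without and 747 to 788 with irradiation, and 1142 to 1157 and 730 to 746 in cKO Inputs. In the same order, 8 monocyte markers (such as Ly6c2 and Ccr2) summed to 1664 to 1707, 1178 to 1181, 1655 to 1683 and 956 to 964 CPM. The 10 macrophage markers (such as Adgre1, Csf1r and C1qa) summed to 6701 to 6854, 5916 to 6373, 7315 to 7496 and 6352 to 6583 CPM. As for Ctsc, the lowest library was of WT IR and cKO Ctrl was highest. Unlike for Ctsc, WT Ctrl was above cKO IR, and WT IR and cKO IR overlapped. The 7 dendritic cell markers, of which up to 3 had no count in a group, were at 405 to 415, 620 to 638, 461 to 467 and 702 to 737 CPM, higher in both irradiated groups as Ctsl was. Lower in both, as Ctse was, were the macrophage, monocyte, neutrophil and mast cell or eosinophil sums. So was the sum of 5 granule progenitor markers, at 52.9 to 58.4 CPM in WT Ctrl, 16.2 to 18.2 in cKO Ctrl and at most 0.214 after irradiation. A sum follows the most abundant markers of its list. From WT IR to cKO IR the monocyte sum fell, while 5 of 8 monocyte markers were called higher and 2 lower (median log2 fold change 0.26). The dendritic cell sum rose, while of 4 tested markers 1 was called higher and 2 lower (median -0.39). Of all genes 23.9% were called higher and 23.8% lower there. The part of these marker genes in the cathepsin values was not tested. None of the macrophage, monocyte or neutrophil markers was at 0 in any Input group, whereas the summed levels of B cell, T and NK cell, epithelial and fibroblast markers were at most 8.05 CPM. Endothelial markers summed to 114 to 185 CPM, and mast cell or eosinophil markers to 20.5 to 21.4 in WT Ctrl, 7.75 to 10.1 in cKO Ctrl and at most 0.293 after irradiation. Erythroid markers summed to 27.4 to 29.9 CPM in WT IR and at most 0.067 elsewhere.

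Members whose group means spanned over 0.5 on the log2 scale (Ctsk, Ctsc and Ctse) were compared with all tested genes of at least 10 CPM by their profile over the 4 Input groups, as the root mean square difference of centred log2 levels. Ctsk was nearest to Bst2 (0.019), Ccl3 (0.026) and Lsm10 (0.032), Ctsc to Lyn (0.024), Dtx2 (0.026) and Metrnl (0.031), and Ctse to Pparg (0.068), Hmgn5 (0.074) and Pola1 (0.082), among 8124 candidates.

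Inhibitors of the cathepsins moved in both directions. Of 11 tested cystatin, stefin and serpin genes, 2 rose and 6 fell after irradiation in WT (median log2 fold change -0.50), where 14.7% and 17.0% of all genes were called, and 4 rose and 5 fell in cKO (median 0.32), where 21.8% and 23.8% were. Between the unirradiated genotypes 6 were lower in cKO and the others were not called (median -0.29, with 7.61% of all genes lower), and between the irradiated ones 5 were higher and 2 lower (median 0.38, with 23.9% and 23.8% of all genes). The irradiation effect was more positive in cKO for 6, with the others not called (median 0.57, with 15.0% of all genes more positive). The largest of these was 1.97 for Stfa3, a gene near 0 in WT IR. Stefin genes had few counts after irradiation. Stfa2 went from 5.67 to 0.327 mean CPM in WT and from 2.58 to 0.271 in cKO, with 14 to 28 and 8 to 30 counts after irradiation. Cst3, the gene of the secreted inhibitor cystatin C, rose from 824 ± 14 to 990 ± 50 CPM in WT and from 842 ± 19 to 1302 ± 6.3 in cKO (SD, n = 3). In log2 terms that was 0.27 in WT (adjusted p = 1.4e-06) and 0.63 in cKO (adjusted p = 6.4e-12). Cstb, which encodes the cytosolic inhibitor stefin B, was at 240 ± 10 CPM in WT IR and 369 ± 10 in cKO IR, a difference of 0.61 (adjusted p = 1.7e-11). The genes that fell were led by the stefin A cluster, which holds close copies whose reads the counting could split: Stfa3 was at 2.89 to 3.15 CPM in WT Ctrl and 0.077 to 0.16 in WT IR, and BC100530 at 3.15 to 4.13 CPM in cKO Ctrl and 0.014 to 0.12 in cKO IR. The neutrophil marker sum fell in these groups too, and its part was not tested.

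Genes of the proton pump that acidifies lysosomes were also measured. Of 16 subunit genes, 2 rose and 1 fell after irradiation in WT (median 0.02), where 14.7% and 17.0% of all genes were called, and 10 rose and 1 fell in cKO (median 0.25), where 21.8% and 23.8% were. By the interaction 8 had a more positive and 1 a more negative irradiation effect in cKO, against 15.0% and 15.2% of all genes. Atp6v0b was at 105.3 to 105.7 CPM in the cKO Ctrl libraries and at 159 to 169 in the cKO IR ones (0.65 on the log2 scale, adjusted p = 1.4e-10), and Atp6v1f by 0.65 (adjusted p = 1.9e-09), whereas Atp6v0a1 fell by 0.58 (adjusted p = 9.1e-12). In WT the called subunits were Atp6v0d2 at 0.33 (adjusted p = 3.1e-07), Atp6v0e at 0.19 (adjusted p = 0.0045) and Atp6v0a1 at -0.17 (adjusted p = 2.0e-04).

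Other lysosomal genes were called in both directions, and the counts read against the 14.7% higher and 17.0% lower of all genes in WT and the 21.8% and 23.8% in cKO. Of 27 hydrolases, 4 rose and 6 fell in WT, led by Ids (0.22) and Arsb (-0.64), and 6 rose and 11 fell in cKO, led by Aga (0.51) and Man2b1 (-0.46). The hydrolases that rose made up a share close to that of all genes in both genotypes. Of 17 membrane and activator proteins, 6 rose and 3 fell in WT and 6 rose and 6 fell in cKO, with Cd63 at 0.53 and Ctns at -0.49 in cKO. Among 10 sorting receptors and transcription factors, 5 fell in WT with the others not called, and 3 rose and 7 fell in cKO. Igf2r, the large mannose 6-phosphate receptor that carries cathepsins to lysosomes, fell by 0.58 in cKO (adjusted p = 5.8e-11), and M6pr, the small one, rose by 0.24 (adjusted p = 4.8e-07). Of 8 processing enzymes and class II partners, 2 rose and 3 fell in WT and 2 rose and 4 fell in cKO, where the invariant chain gene Cd74 fell by 0.31 (adjusted p = 5.6e-07). Beyond the 10 members, 3 of 13 other cathepsin genes were tested, and Ctso rose by 0.27 and Ctsf by 0.40 in cKO after irradiation (adjusted p = 4.3e-04 and 0.011). Ctsg, a granule protease of neutrophils and their precursors, was at 2.11 to 3.49 CPM in WT Ctrl and 0.556 to 0.798 in cKO Ctrl, and it was counted at most 2 times in an irradiated Input library.

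In the m6A IP, most cathepsin mRNAs were recovered less than the average mRNA. IP over Input was tested over 17373 genes in 1 fit of the 24 libraries, and it is relative, since it sets a gene against the typical gene of the same library. In WT Ctrl 2 of the 10 were enriched and 8 depleted, against 38.1% and 37.5% of all tested genes, and in cKO Ctrl 2 were enriched and 7 depleted (37.8% and 36.0%). The median log2 IP over Input of the 10 was -0.58 in WT Ctrl and -0.61 in cKO Ctrl, beside 0.02 over all genes in each. The strongest depletion was that of Ctsd, Ctsb and Ctss, which were also the most abundant by CPM. Ctsd stood at -1.26 and -0.94 in WT Ctrl and cKO Ctrl, Ctsb at -1.25 and -1.13 and Ctss at -1.08 and -1.05 (each SE 0.025 or less). Ctsa, Ctsl, Ctsh and Ctse were also depleted in both groups, between -0.93 and -0.45.

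**Figure D3:**
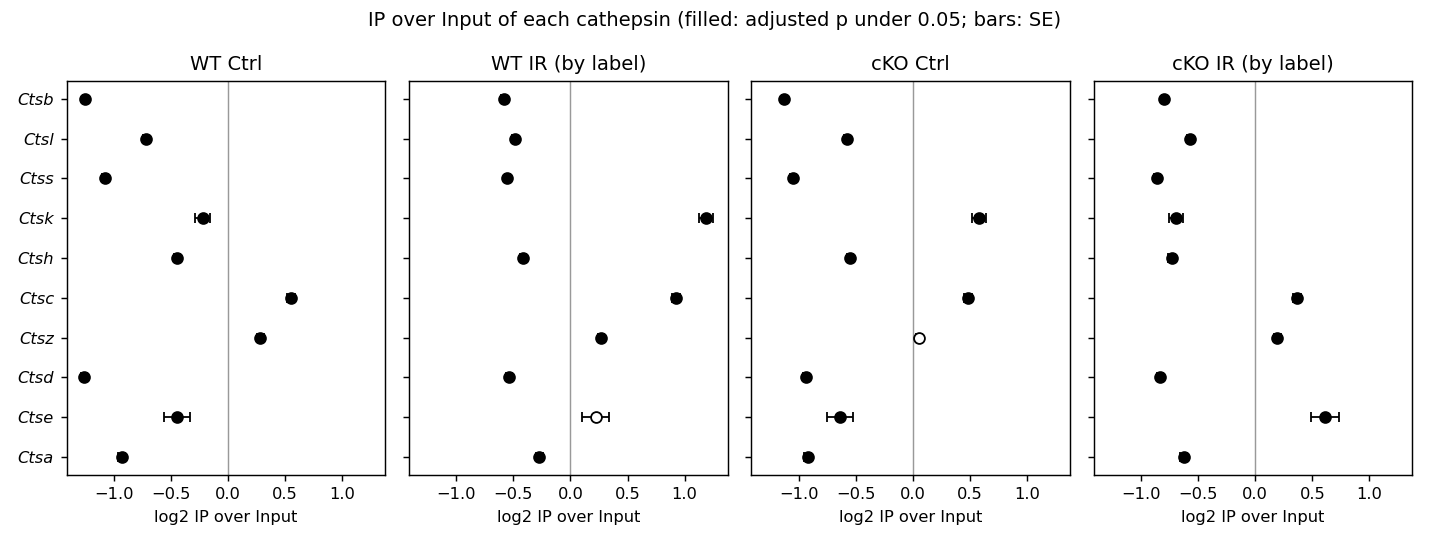
Log2 IP over Input (x axis) of each cathepsin (y axis) in the 4 groups, by label; bars are SE and filled points have an adjusted p under 0.05. Ctsc was above 0 in all 4 panels, at 0.37 to 0.93, and Ctsk above 0 in cKO Ctrl and in the panel labelled WT IR.

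Ctsc was the member enriched in every group. Its IP levels were 681, 687 and 682 CPM in WT Ctrl and 906, 839 and 867 in cKO Ctrl, against Input levels of 388 to 412 and 528 to 545. The cKO Ctrl libraries were higher than the WT Ctrl libraries in IP and Input alike. IP over Input was 0.55 in WT Ctrl (SE 0.035, adjusted p = 8.6e-16) and 0.48 in cKO Ctrl (SE 0.035, adjusted p = 2.9e-14), and these values differed by -0.07 (SE 0.050, adjusted p = 0.36).

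Ctsk differed in its enrichment between the unirradiated genotypes, and the irradiated groups are given further below. Its IP levels were 14.9, 14.6 and 13.9 CPM in WT Ctrl and 32.1, 34.2 and 33.4 in cKO Ctrl, so that the 3 cKO libraries were above the WT ones, by 2.30-fold in mean CPM where the Inputs differed by 1.31-fold. IP over Input was -0.22 in WT Ctrl (SE 0.066, adjusted p = 0.0030) and 0.58 in cKO Ctrl (SE 0.062, adjusted p = 3.3e-10). The difference of 0.80 (SE 0.090, adjusted p = 1.7e-08) was the largest of the 10 genes, and it kept its call in a fit of the 12 unirradiated libraries and in every other alternative.

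Over all 10 genes, IP over Input was higher in cKO Ctrl than in WT Ctrl for 4 and lower for 2, against 10.1% and 12.5% of all genes. Besides Ctsk these were Ctsd (0.33, SE 0.035, adjusted p = 6.3e-09), Ctsl (0.14, SE 0.033, adjusted p = 0.0016) and Ctsb (0.12, SE 0.027, adjusted p = 7.1e-04). Ctsz had the reverse sign, at 0.28 in WT Ctrl and 0.05 in cKO Ctrl with a difference of -0.23 (SE 0.040, adjusted p = 3.1e-05). The -0.11 of Ctsh (adjusted p = 0.041) lost its call under RLE scaling (adjusted p = 0.092) and without any 1 of 8 libraries, WT Ctrl Input replicate 2 giving the highest adjusted p (0.11). It was also lost with DESeq2, without a count filter and with a replicate block, and was kept in 17 of 29 alternatives.

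By label, 3 members were enriched and 6 depleted in WT IR (37.0% and 36.5% of all genes), and 3 and 7 in cKO IR (36.9% in each direction). Against the irradiated Inputs of the other genotype label these counts were 4 and 6, and 3 and 6. By label, the difference from WT Ctrl to WT IR was higher for 8 and lower for 0 (21.7% and 19.8%, with 0 lower also at an unadjusted p under 0.05 and by DESeq2), and with the other Inputs it was higher for 7 and lower for 2. That from cKO Ctrl to cKO IR was higher for 6 and lower for 2 by label (23.6% and 21.8%), and higher for 8 and lower for 1 with the other Inputs. That from WT IR to cKO IR was higher for 0 and lower for 8 by label (edgeR, 17.1% and 21.3%, with 1 higher at an unadjusted p under 0.05 and by DESeq2). With the other Inputs it was higher for 2 (Ctsh and Ctsz) and lower for 3 (Ctsa, Ctsd and Ctse), still as the label cKO IR minus the label WT IR. Were the genotypes taken from Lyz2 in place of the labels, the irradiated group set against each Ctrl group would be of the other genotype, and cKO minus WT would be the reverse, with 3 higher and 2 lower. Ctsk carried the largest of these values, with IP levels of 40.7, 40.5 and 39.6 CPM under the label WT IR and 18.9, 21.2 and 20.2 under the label cKO IR. Its IP level was high in the groups with low Lyz2 in the IP. IP over Input of Ctsk was 1.19 and -0.70 against the Inputs of the same label, and 0.28 and 0.21 against the irradiated Inputs of the other genotype label, between which a difference of -0.06 was not called (adjusted p = 0.61). Ctsc was enriched either way, at 0.93 and 0.37 by label and 0.59 and 0.70 against the other Inputs. By Lyz2, the IP libraries labelled WT IR (98.3 CPM) lay with the cKO IR Inputs (410 CPM) and far from the WT IR Inputs (20614 CPM), and the IP libraries labelled cKO IR (21140 CPM) lay with the WT IR Inputs. In the unirradiated groups the IP level of Lyz2 lay with that of the Inputs of the same label.

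**Figure D4:**
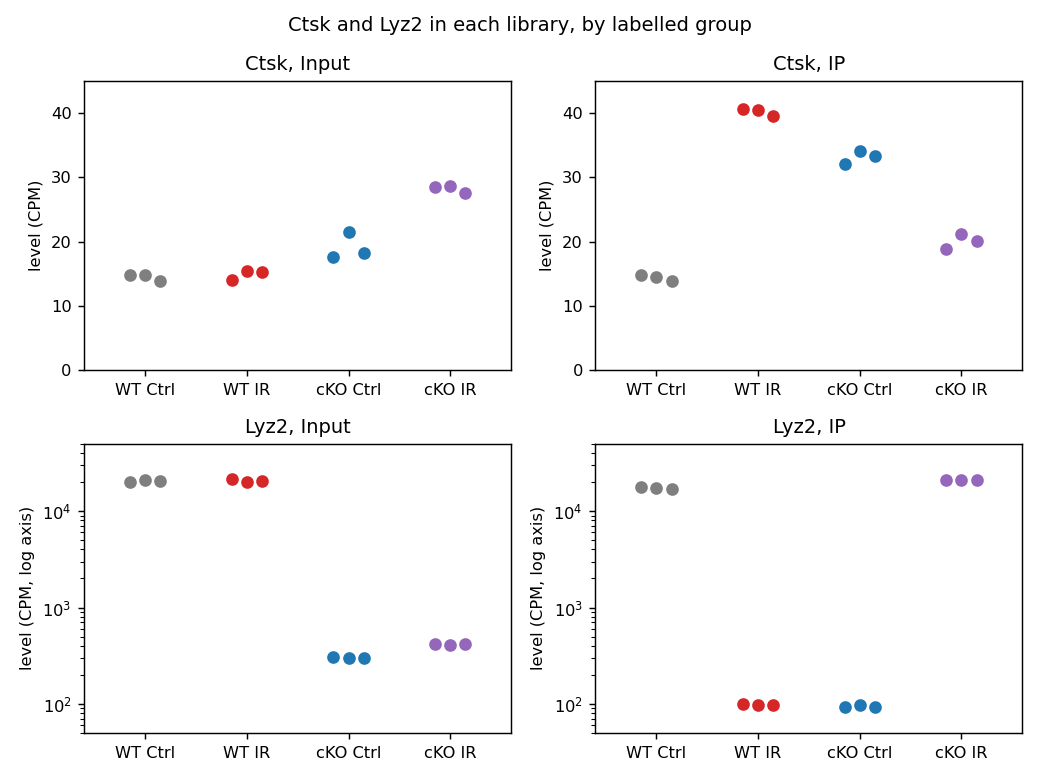
Ctsk (upper panels, CPM, linear axes) and Lyz2 (lower panels, CPM, log axes) in each Input (left) and IP (right) library, by labelled group. In the IP, Ctsk was at 32.1 to 40.7 CPM in the groups with a low Lyz2 IP level (mean 95.2 and 98.3 CPM) and at 13.9 to 21.2 in those with a high one (17303 and 21140 CPM).

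Peaks are stretches that the authors' peak caller found enriched in an IP library. A consensus peak was present in all 3 libraries of a group on the gene's strand. Of the 10 genes 3 had a consensus peak in WT Ctrl (Ctsc, Ctsh and Ctsz), 5 in WT IR by label (Ctsa, Ctsc, Ctse, Ctsh and Ctsk), 3 in cKO Ctrl (Ctsc, Ctsh and Ctsk) and 2 in cKO IR by label (Ctsc and Ctse), where 29.6%, 25.1%, 27.7% and 22.3% of the tested genes had one. Ctsb, Ctsd, Ctsl and Ctss had none in any group, and Ctsb, Ctsd, Ctse, Ctsk and Ctss had no peak in any WT Ctrl library. Fold values at the summits were low: with at least 4-fold enrichment required in each library, a single peak, over Ctsk in the group labelled WT IR, was left.

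Ctsc, on chromosome 7 (88278085 to 88310888, plus strand, GRCm38/mm10), held 6 consensus peaks in WT Ctrl, 8 in WT IR by label, 4 in cKO Ctrl and 2 in cKO IR by label. A pair of them at the end of the gene recurred in all 4 groups. The first began at 88309293 to 88309324 and had its summits in the coding part of the last exon (exon 7). It ended short of the last coding base in WT Ctrl (88309854), cKO Ctrl (88309853) and under the label cKO IR (88309841). Under the label WT IR it ran into the 3′ UTR (to 88310175). Its folds were 1.36, 1.36 and 1.26 in WT Ctrl and 1.27, 1.37 and 1.28 in cKO Ctrl. The second lay in the 3′ UTR, with summits 813 to 829 bases past the last coding base and folds of 1.47, 2.02 and 1.92 in WT Ctrl and 1.68, 1.53 and 1.59 in cKO Ctrl. Further consensus peaks had their summits in introns or in exons of other transcripts, up to 2.95-fold in WT Ctrl, and in the group labelled WT IR also in coding exons 1 and 4, up to 3.81-fold. Among them, a peak at 2.21 to 2.30-fold in WT Ctrl lay at the edge of coding exon 3. Its summits were at 88297081 to 88297083 in WT Ctrl, and that of replicate 3 fell within the exon. The exon 4 peak was also called in replicates 2 and 3 of WT Ctrl (3.21 and 3.08-fold) and of cKO Ctrl (2.81 and 3.28-fold). The exon 1 peak was also called in WT Ctrl replicate 3 (3.02-fold).

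Ctsk (chromosome 3, 95499256 to 95509362, plus strand) had 0 consensus peaks in WT Ctrl and 1 in cKO Ctrl, over the last exon with folds of 3.20, 2.25 and 2.22. Its summits in the 3 libraries lay 177, 41 and 43 bases past the last coding base. The group labelled WT IR held this peak at 3.89, 2.66 and 3.99-fold and 3 more over coding exons 4, 5 and 6, the strongest at 4.87, 4.56 and 4.45-fold in exon 4. The group labelled cKO IR had none. Peak calls over Ctsk were thus present in the groups in which its IP level was highest.

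Ctsh (chromosome 9, plus strand) had 1 weak peak in its last exon, exon 12, with summits 16 to 62 bases past the last coding base in both unirradiated groups, at 1.37 to 1.49-fold in WT Ctrl and 1.24 to 1.39-fold in cKO Ctrl. Ctsz (chromosome 2, minus strand) had 1 consensus peak in coding exon 3 at 1.41 to 1.48-fold in WT Ctrl. Stronger peaks were called in WT Ctrl replicates 1 and 2 but not 3, in coding exon 6 (2.22-fold in each) and coding exon 4 (1.86 and 1.83-fold). Consensus peaks over Ctse lay in introns, 1 in WT IR and 4 in cKO IR by label, with folds up to 9.25 in 1 library, while the gene's exons held at most 375 IP counts there.

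**Figure D5:**
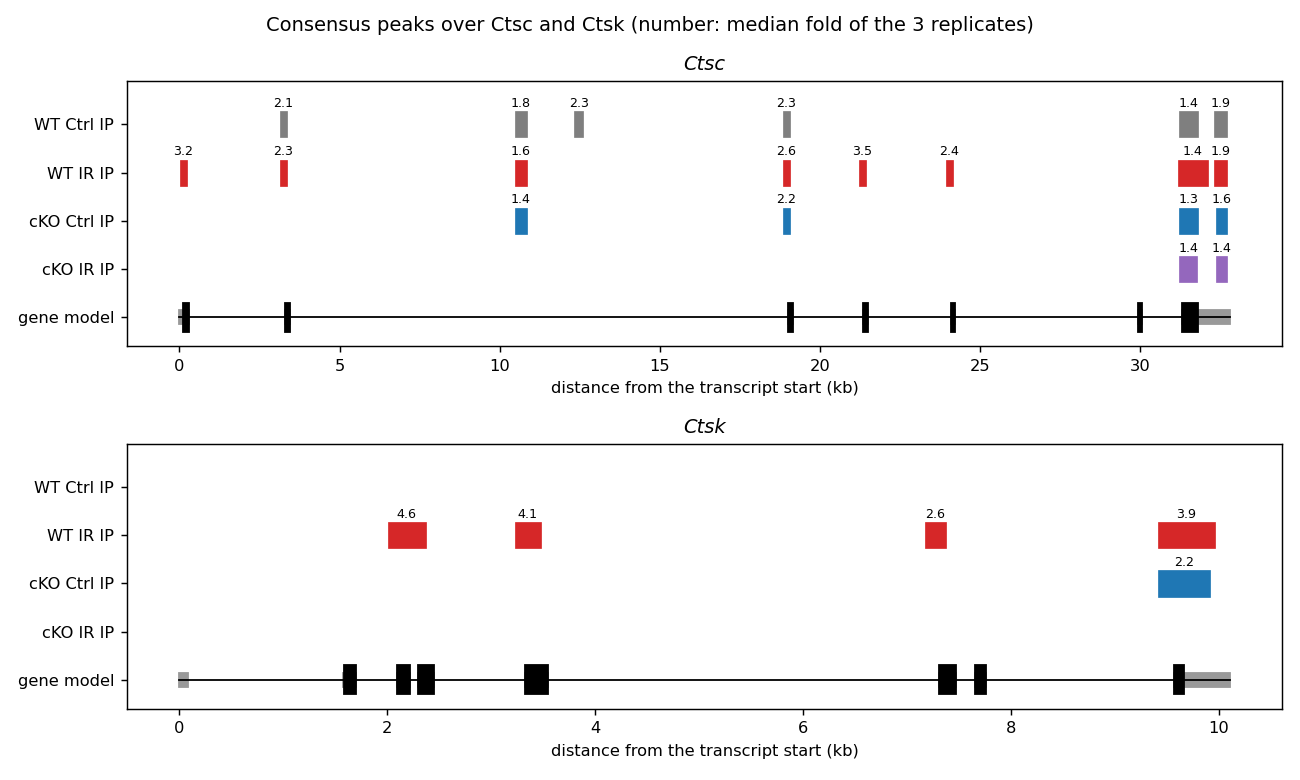
Consensus peaks over Ctsc and Ctsk in the 4 IP groups, by label, as boxes along the gene (x axis, distance from the transcript start in kb), with the median fold of the 3 libraries above each; the gene model shows coding exons in black and UTRs in grey. Both genes had a peak over the last exon, in 4 groups for Ctsc and in cKO Ctrl and WT IR for Ctsk.

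The m6A mark is written mostly at adenosines in contexts such as GGAC. Windows of 201 bases around the midpoint of each consensus peak were searched for GGAC on the strand of the gene and on the opposite strand, with no other motif searched. Of all consensus peaks 57.1% in WT Ctrl and 55.9% in cKO Ctrl held it on the gene's strand, and 47.3% and 46.1% on the other. Among peaks of the 10 genes, 3 of 8 in WT Ctrl and 2 of 6 in cKO Ctrl did on the gene's strand, and 5 of 8 and 3 of 6 on the opposite strand. Under the labels WT IR and cKO IR, 6 of 15 and 5 of 6 held GGAC on the gene's strand, beside 58.2% of all peaks in each. On the opposite strand these were 9 of 15 and 4 of 6, beside 48.3% and 47.7%. The copies nearest the midpoints of the recurrent peaks over Ctsc and of the peaks over Ctsk are shown. They are given 5′ to 3′ on the plus strand of the GRCm38 genome, with GGAC in capitals. Ctsc was enriched in every group. Ctsk was enriched in cKO Ctrl and under the label WT IR, and depleted in WT Ctrl and under the label cKO IR. The Ctsc copies lie at chr7:88309602-88309625 in the coding sequence of exon 7 and at chr7:88310488-88310511 in the 3′ UTR, and the Ctsk copies at chr3:95502676-95502699 in the coding sequence of exon 5 and at chr3:95509008-95509031 in the 3′ UTR.
Ctsc, coding sequence: ggtcaaacatGGACccatggcagt
Ctsc, 3′ UTR: gcaagcaagaGGACctgaggccag
Ctsk, coding sequence: agaatcttgtGGACtgtgtgactg
Ctsk, 3′ UTR: ctcctgagagGGACgcagcgatgc
The Ctsc coding copy was 25 to 32 bases past the midpoint of the peak in WT Ctrl, cKO Ctrl and the group labelled cKO IR. The summits of this peak lay at 88309733 to 88309734 in WT Ctrl, 88309654 to 88309734 in cKO Ctrl and 88309600 to 88309713 under the label cKO IR. Those of the Ctsc 3′ UTR peak lay at 88310712 to 88310713 in WT Ctrl, away from the copy shown. The Ctsk 3′ UTR copy was 99 bases past the midpoint in cKO Ctrl, at the edge of the window. The Ctsc 3′ UTR copy lay in the window of the WT Ctrl peak alone, and the Ctsk coding copy in that of the peak labelled WT IR. No file gives m6A at single bases, so these letters are a description of the peak and not a mapped site.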

How the data were processed

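Reads of 12 Input and 12 m6A IP libraries were processed by the authors. Per the labels and the study's methods, they were trimmed with Trimmomatic 0.39, aligned to mm10 with HISAT and strand-specific settings using GENCODE M19, and counted per gene. The deposited gene values are raw counts, not normalized or pooled; the MACS2 peak lists deposited by the authors, called per library and strand, hold, per peak, a fold enrichment (a ratio to a control), p-values and q-values as −log10, and a score. The control of each IP library is not given in the sources used here. The lowest deposited −log10 q was 2.0.

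Symbols, positions and exons came from GENCODE vM21 (GRCm38), which matched 54409 of 54446 identifiers, and sequences from the RefSeq copy of GRCm38. Genes reaching 10 counts in 3 or more libraries were tested with edgeR 4.0.16 (R 4.3.3; TMM, quasi-likelihood F test), the 12 Inputs in 1 fit and the 24 libraries in another, at a Benjamini-Hochberg adjusted p under 0.05 over all tested genes. SEs are on the log2 scale. Biological variation by edgeR's common dispersion came to a coefficient of 5.57% (Inputs) and 4.98% (24 libraries). Both fits were tested on simulated counts. Levels are CPM, scaled separately in Inputs and IPs, and marker sums use unscaled totals. Peaks were called consensus where present in 3 of 3 libraries with at least 1 shared base. Alternatives were RLE scaling, DESeq2 1.42.0, other count filters, only the 6 Inputs of a contrast, a replicate block, leaving out each library, the irradiated Inputs of the other genotype label, stricter or looser peak rules and, added after seeing the data, the 12 unirradiated libraries alone. Same-numbered libraries of the groups compared deviated from their group means with correlations of -0.12 to 0.039. Deviations from means of 3 libraries can be mostly counting noise, so this cannot exclude a pairing of Input and IP by replicate. The main fits left such pairing out.

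Groups came from the labels alone. The members, gene lists and tests were chosen with earlier results of these data known. Every member was named, with values in each Input library for those called in at least 3 of 5 Input contrasts and by range for the others. Genes of the lists were named from among the largest called rises and falls per list and contrast, not all of which are given. Nearest profiles were named for members whose 4 group means spanned at least 0.5 on the log2 scale. Counts on the opposite strand are kept apart by the stated strand setting. Hmgb1-ps5 overlaps Ctss on its strand with at most 294 Input counts.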

Additional observations from a re-analysis of the deposited data

Results flagged for a closer look

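The irradiation effect on 4 cathepsins differed between the genotypes by the interaction term of edgeR's quasi-likelihood test, as the effect in cKO minus that in WT on the log2 scale: 0.52 for Ctsk (adjusted p = 4.3e-04), 0.33 for Ctsh (adjusted p = 1.0e-05), 0.11 for Ctsl (adjusted p = 0.032) and 0.10 for Ctsb (adjusted p = 0.015). For Ctsk and Ctsb the 3 WT IR libraries overlapped WT Ctrl while all 3 cKO IR libraries were above cKO Ctrl. For Ctsl both genotypes rose, and the difference was past the threshold in fewer alternatives than the others.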

How the results depend on the processing

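RLE scaling and the filter of 50 counts changed no call of a cathepsin in the Inputs. Without a count filter, Ctsz in WT IR vs WT Ctrl and Ctsd in cKO IR vs WT IR were called in addition, and Ctsh in WT IR vs WT Ctrl and Ctsl in the interaction were not (0.101 and 0.0931). The fit of 6 Inputs also lost Ctsh in WT IR vs WT Ctrl (0.112). Without WT IR Input replicate 1 the interaction called 7 members (5 higher, 2 lower) in place of 4. Leaving out each library in turn gave 5 to 8 members called in WT IR vs WT Ctrl, 9 in cKO IR vs cKO Ctrl, 5 to 6 in cKO Ctrl vs WT Ctrl, 8 to 9 between the irradiated genotypes and 3 to 7 for the interaction. For IP over Input it gave 5 to 6 members in cKO Ctrl vs WT Ctrl, 8 in WT IR vs WT Ctrl, 8 to 9 in cKO IR vs cKO Ctrl, and 7 to 9 between the irradiated genotypes, with 2 and 2 to 3 enriched members in WT Ctrl and cKO Ctrl, and 3 to 4 and 3 in the groups labelled WT IR and cKO IR. Over all genes, cKO Ctrl vs WT Ctrl called 2520 genes, and 3870 in the fit of its 6 Inputs, where Ctsl was also called lower (adjusted p = 0.0084). The replicate block cost Ctsl its interaction call (adjusted p = 0.057) and left 3 members there, and it cost Ctsh its call in IP over Input (adjusted p = 0.054). In no pair of groups did all 3 numbers correlate best with themselves.

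Against the irradiated Inputs of the other genotype label, cKO IR vs WT IR called 5 members in place of 8. IP over Input of Ctsk in cKO IR reversed to 0.21. Differences whose sign reversed and that were called were those of Ctsh (-0.32) in WT IR vs WT Ctrl, Ctsc (0.22) and Ctsh (0.17) in cKO IR vs cKO Ctrl, and Ctse (-0.50), Ctsh (0.39) and Ctsz (0.29) in cKO IR vs WT IR. In that last comparison Ctsb (0.05), Ctsc (0.11) and Ctss (0.021) also changed sign but were no longer called (adjusted p = 0.101, 0.0653 and 0.664). The changed Inputs are the construction of this alternative.

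Consensus peaks of at least 4-fold were left over 1 member in WT IR and 0 in each other group. Summits within exons left 3 in WT IR and 1 in cKO IR, and peaks in 2 of 3 replicates gave 5 in cKO Ctrl. With the longest coding transcript the levels were 171 CPM per kb for Ctsa, 1182 for Ctsb, 135 for Ctsc, 1397 for Ctsd, 2.18 for Ctse, 279 for Ctsh and 80.8 for Ctsl. Ctse, with 156 to 556 Input counts, and Ctsk had the largest SEs.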
